A study of Mus musculus with 8 samples.

Results

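The Siglec receptors are cell-surface lectins of the immunoglobulin superfamily that bind sialic acids, the acidic sugars that cap many glycoproteins and glycolipids. The 6 genes described here, Siglec1, Siglece, Siglecf, Siglecg, Siglech and Cd33, were taken by symbol from 32903 genes, after the deposited transcript values had been summed per gene. They were measured in 2 groups of libraries from wild-type mice. The 3 CCl4 libraries came from Kupffer cells (macrophages resident in the liver) of mice that had received carbon tetrachloride in corn oil, a liver toxin, at 0.75 mL/kg with 3 doses in each of 8 weeks, and whose livers are labelled as fibrotic. The 5 naive libraries came from Kupffer cells of mice labelled as untreated controls, for which no oil treatment is named. The labels used here give no strain, age, sex or isolation method. The CCl4 libraries are numbered 1, 2-4 and 3, and whether 2-4 is a pool is not stated. Nothing in the labels says that each library is a separate animal, and the p-values therefore rest on library-to-library spread, which may partly be technical.

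Most Siglecs of the CD33-related branch carry inhibitory tyrosine motifs (ITIMs) in the cytoplasmic tail, which recruit the tyrosine phosphatases SHP-1 and SHP-2 and damp signals from activating receptors when the lectin meets sialylated self. A smaller number lack these motifs and pair instead with DAP12, an adaptor with an activating motif that engages the kinase Syk. Sialoadhesin, encoded by Siglec1 and also called CD169, has a very long extracellular part and no inhibitory motif, and macrophages of lymphoid tissue and liver use it to hold sialylated cells and particles. Sialic acids are attached by sialyltransferases and removed by sialidases, so the genes of these enzymes bear on which ligands a cell offers.

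Siglec genes did not move together between CCl4 and naive libraries. Siglecf and Cd33, the genes of Siglec-F and CD33, rose, with log2 fold changes of 1.99 and 1.88 on the scale of TPM + 1 and ratios of group means of 7.004 and 3.88. Siglece, the gene of the inhibitory receptor Siglec-E, fell, narrowly within the threshold. Siglec1, Siglecg and Siglech did not pass the test. All 6 passed the filter of at least 1 TPM in at least 3 libraries. TPM is a length-corrected transcript abundance scaled to the library total, so levels of different genes can be compared, but the sequencing depth behind a value is unknown. The test was limma on log2(TPM + 1) over 15629 genes, with a Benjamini-Hochberg adjusted p under 0.05 as the threshold. It called 2 of the 6 Siglec genes higher, against 15.3% of all genes tested, and 1 of 6 lower, against 22.5% of all genes tested. In either direction it called 37.8% of genes, so 3 calls among 6 genes are near the background. Siglecf and Cd33, 2 of the 6 genes, had groups that did not overlap, against 36.9% of all genes tested.

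The promoters of Siglecf and Cd33 are shown because these were the members called higher. Of the 6 genes, 5 (all but Siglec1) had a RefSeq promoter window on GRCm38.p6, running from 250 bases before to 50 bases after the annotated start. Siglecf and Cd33 are paralogues on chromosome 7, Siglecf at 43351341 to 43359475 and Cd33 at 43527399 to 43537424. Their windows gave the highest local alignment score of the 10 pairs, 103, against 23 to 48 for the other 9. The aligned stretch had 113 identical bases in 166 columns, gaps included. The 250 bases upstream of the transcript start used for each gene are shown 5′ to 3′ on the gene's own strand, chr7:43351091-43351340 on the plus strand for Siglecf and chr7:43533172-43533421 on the minus strand for Cd33. The Cd33 start in the table lies inside the gene's RefSeq span, whose 5′ end is at 43537424, so the Cd33 stretch is upstream of that transcript start but within the gene. Capitals mark runs of at least 12 bases that are identical in the windows of both genes.
Siglecf: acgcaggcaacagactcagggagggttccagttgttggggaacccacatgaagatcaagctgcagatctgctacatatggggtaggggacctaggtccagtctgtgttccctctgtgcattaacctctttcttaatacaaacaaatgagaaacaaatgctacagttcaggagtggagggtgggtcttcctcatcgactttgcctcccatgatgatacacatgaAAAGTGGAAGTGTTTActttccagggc
Cd33: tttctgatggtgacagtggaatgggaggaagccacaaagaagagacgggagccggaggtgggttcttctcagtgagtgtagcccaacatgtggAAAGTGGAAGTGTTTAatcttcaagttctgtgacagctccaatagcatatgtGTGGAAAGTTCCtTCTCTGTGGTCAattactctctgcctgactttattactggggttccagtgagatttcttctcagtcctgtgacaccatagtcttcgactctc
The first run, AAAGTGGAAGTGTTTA, began 27 bases before the start of Siglecf and 157 bases before that of Cd33. On either strand it was in 2 of 32851 promoter windows, those of Siglecf and Cd33. The second, GTGGAAAGTTCC, was also in those 2 windows alone, and the third, TCTCTGTGGTCA, was in 9. In Cd33 these runs began 105 and 92 bases upstream, and in Siglecf they lay 24 and 37 bases past the start and are therefore not part of the upstream sequence shown. The first run holds GGAAGT, the core of many ETS factor sites, found on either strand in 23.8% of all windows and among the members in those of Siglecf, Cd33 and Siglech. The third holds TGTGGT, the core of RUNX sites, found in 16.8% of windows and in those of the same 3 members. GAGGAAGT, a form preferred by PU.1, and the interferon-stimulated response element were in none of the 5 members' windows, and in 3.20% and 3.44% of all windows. Siglec1 had no window and was not searched for either. A match is a description of letters and shows no binding.

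The preparations differed in which cells' transcripts they held, and these values stand beside every result on the Siglec genes. Of 10 Kupffer cell markers 9 were lower in CCl4 libraries and none was higher, with summed levels of 423 to 674 TPM in CCl4 and 2760 to 5929 TPM in naive libraries. Clec4f, a lectin restricted to mouse Kupffer cells, averaged 77.7 ± 11.0 TPM (SD, n = 3) in CCl4 and 1397 ± 416 TPM (SD, n = 5) in naive libraries. All 12 markers of sinusoidal endothelium were lower, and their sum was 449 to 680 TPM in CCl4 and 5891 to 11011 TPM in naive libraries. Of 10 monocyte markers tested, 6 were higher and 1 was lower. The monocyte list summed to 847 to 1121 TPM in CCl4 and 218 to 374 TPM in naive libraries. Over all genes tested, 15.3% were higher and 22.5% lower. Ptprc, the pan-leukocyte antigen CD45, was also higher, at 306 ± 56.1 TPM in CCl4 and 108 ± 24.2 TPM in naive libraries. In such bulk samples fewer cells of a type and less RNA per cell cannot be told apart, and the part of cell make-up in the Siglec results was not tested. Noncoding 7SL RNA held 27.5% to 41.3% of the TPM of a library.

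Cd33, the founding member of the CD33-related branch, is a receptor of myeloid cells, and the mouse protein lacks the classical ITIM of its human counterpart. It stood at 36.8, 34.6 and 35.8 TPM in CCl4 libraries 1, 2-4 and 3, against 10.6, 11.4, 5.61, 7.99 and 10.5 TPM in naive libraries 1 to 5. Every CCl4 library lay above every naive library, and naive library 3 was the lowest of all. The means were 35.8 ± 1.11 TPM (SD, n = 3) in CCl4 and 9.20 ± 2.38 TPM (SD, n = 5) in naive libraries, a log2 fold change of 1.88 (SE 0.207, limma adjusted p = 4.71e-05). Cd33 had 3 listed transcripts, whose shares of the gene's sum varied widely between libraries. The ranges were 14.4% to 44.1%, 8.9e-06% to 57.4% and 28.25% to 67.2%. The second was at 3.08e-06 TPM in CCl4 library 2-4, against 1.93 to 6.53 TPM in naive libraries, so not every transcript was higher there. With the most abundant transcript alone the log2 fold change was 2.09 (limma adjusted p = 0.000281).

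Siglecf encodes Siglec-F, an ITIM-bearing receptor known best from eosinophils and alveolar macrophages, where its engagement can trigger cell death. Its levels were low throughout, at 6.24, 6.84 and 6.69 TPM in CCl4 libraries 1, 2-4 and 3, against 1.07, 1.10, 0.607, 0.519 and 1.41 TPM in naive libraries 1 to 5. The groups were well apart, and the naive values sat around the filter of 1 TPM. The means were 6.59 ± 0.312 TPM in CCl4 and 0.941 ± 0.370 TPM in naive libraries, which gave a log2 fold change of 1.99 (SE 0.195, limma adjusted p = 2.22e-05). At such low levels the added 1 TPM shrinks the fold change. Each of the 3 Siglecf transcripts held from 0% to 100% of the gene's sum, depending on the library. With the most abundant transcript alone the log2 fold change was 1.88 (limma adjusted p = 0.00299). The ratio of the means was 7.004 for Siglecf and 3.88 for Cd33, and the order of their log2 fold changes depended on the pseudocount, with 2.76 for Siglecf and 1.99 for Cd33 at 0.1 TPM and 0.97 and 1.54 at 5 TPM.
Eosinophil genes were measured beside it, since eosinophils carry Siglec-F. Of 7 such genes 5 were below the filter, among them Prg2 and Epx, which encode granule proteins of that cell. Prg2 was at 0.670, 0.916 and 0.130 TPM in CCl4 libraries 1, 2-4 and 3, and at 0 to 0.114 TPM in naive libraries. Epx was at most 0.0683 TPM in CCl4 and 0.404 TPM in naive libraries. Of the other 2, Ccr3, the eotaxin receptor, averaged 0.339 ± 0.206 TPM in CCl4 and 2.82 ± 2.18 TPM in naive libraries. It was called lower in CCl4 (limma adjusted p = 0.0467), but its groups overlapped. Ccr3 passed the filter only through naive libraries, so its call is no support for a direction. Il5ra was not called, at 7.27 ± 1.58 and 5.84 ± 0.490 TPM in CCl4 and naive libraries. The summed level of all 7 was 7.26 to 10.5 TPM in CCl4 and 7.53 to 12.5 TPM in naive libraries, and the groups overlapped. Il5ra alone was at 6.04 to 9.05 TPM in CCl4 and 5.13 to 6.45 TPM in naive libraries, so the sum says little about the granule genes.

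**Figure D1:**
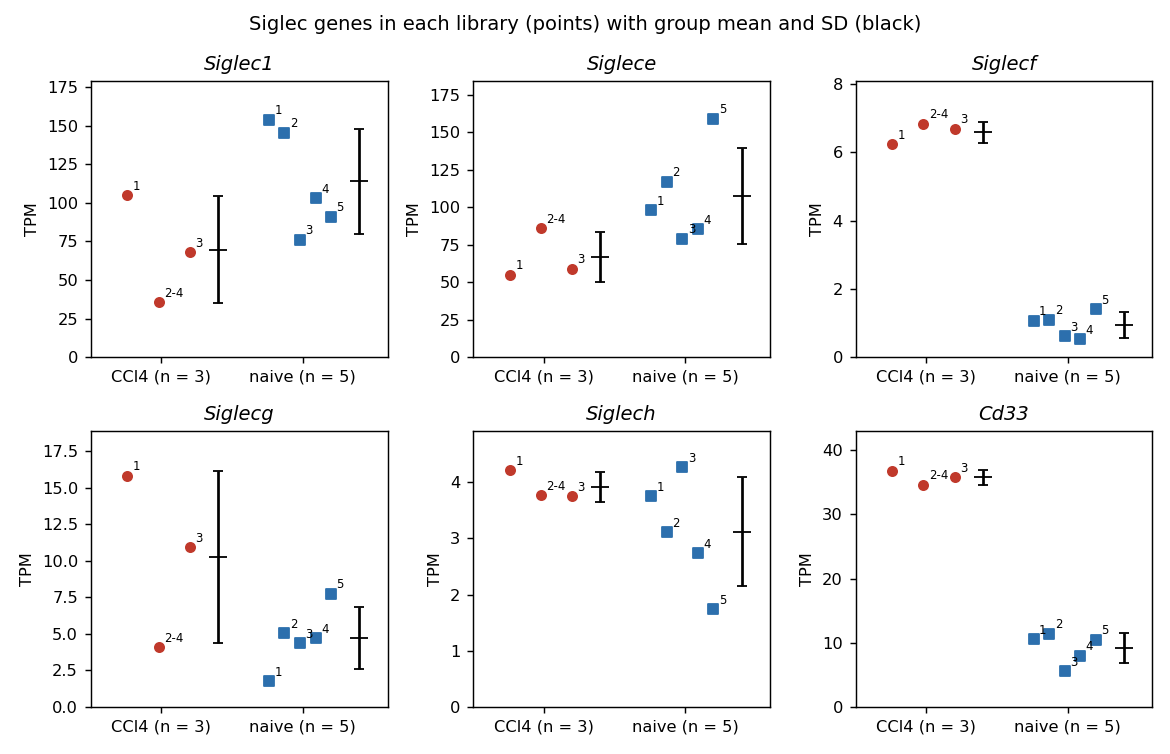
TPM of the 6 Siglec genes in each library (points, numbered as in the labels), with CCl4 libraries in red at the left, naive libraries in blue at the right, and the group mean and SD in black. For Cd33 and Siglecf the 3 CCl4 points lie above all 5 naive points, while for the other 4 genes the groups overlap.

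Siglece encodes Siglec-E, an inhibitory receptor of neutrophils, monocytes and macrophages that signals through ITIMs. It measured 55.1, 85.8 and 59.1 TPM in CCl4 libraries 1, 2-4 and 3, against 98.1, 117, 79.0, 85.1 and 159 TPM in naive libraries 1 to 5. CCl4 library 2-4 lay above naive libraries 3 and 4, so the groups overlapped, and naive library 5 was the highest of all. The means were 66.7 ± 16.7 TPM in CCl4 and 108 ± 32.1 TPM in naive libraries, a log2 fold change of -0.66 (SE 0.235, limma adjusted p = 0.0461). The call did not hold under 11 of the 20 other limma settings, including the omission of any of CCl4 libraries 1 and 3 and naive libraries 1, 2 and 5 (adjusted p = 0.149, 0.150, 0.0668, 0.0898 and 0.0530), and the direction held in all 20.
On RefSeq annotation Siglece (chromosome 7, 43648882 to 43672044) overlaps the ends of Ctu1 and Ceacam18, and whether strand was used in the quantification is not given in the sources used here. Ctu1 was at 6.49 ± 0.906 TPM in CCl4 and 7.68 ± 0.832 TPM in naive libraries and Ceacam18 at 0.845 ± 0.241 and 0.626 ± 0.411 TPM, far below Siglece in both groups.

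Siglec1 (chromosome 2, 131067801 to 131086778) had the highest mean of the 6 genes in either group. It stood at 105, 35.6 and 68.1 TPM in CCl4 libraries 1, 2-4 and 3, against 154, 145, 76.1, 103 and 91.1 TPM in naive libraries 1 to 5. CCl4 library 1 lay within the naive range and the other 2 CCl4 libraries below it. The means were 69.5 ± 34.6 TPM in CCl4 and 114 ± 34.1 TPM in naive libraries, and the log2 fold change of -0.78 (SE 0.330, 95% interval -1.51 to -0.05) did not pass after adjustment (limma adjusted p = 0.0877). Without CCl4 library 1 it was -1.14 (limma adjusted p = 0.0195), and without CCl4 library 2-4 it was -0.37 (limma adjusted p = 0.365), so its size and call depended on single libraries.
Siglec1 was also set against other macrophage genes of the same library. The ratio of Siglec1 to Clec4f TPM was 0.444 to 1.20 in CCl4 and 0.0697 to 0.0910 in naive libraries. Against Adgre1, the macrophage antigen F4/80, it was 0.419 to 0.533 in CCl4 and 0.620 to 0.811 in naive libraries. Both ratios separated the groups, in opposite directions, and a ratio shows only unequal change of its 2 genes. Within the CCl4 group, Siglec1 and Adgre1 ranked the libraries alike, with 1 the highest and 2-4 the lowest. Cd33, Siglecg and Fcer1g had the same order there. In the naive group Siglec1 and Adgre1 ranked the libraries differently.

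Siglec1 is known as an interferon-inducible gene, so 15 genes of the type I interferon response were read beside it. Of these 3 were higher and 6 lower in CCl4, against 15.3% and 22.5% of all genes tested, and their median log2 fold change was -0.09, against -0.06 over all genes tested. Mx1, an antiviral GTPase, rose to 36.7 ± 3.63 TPM in CCl4, against 14.2 ± 2.42 TPM in naive libraries, while Ifi44 fell to 4.14 ± 0.636 TPM, against 19.1 ± 7.28 TPM. Ifit2 and Rsad2 fell too, by 1.04 and 0.75 on the log2 scale (limma adjusted p = 0.00446 and 0.0107). Without CCl4 library 3, 2 of the 15 were called lower.

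Siglecg encodes Siglec-G, an ITIM-bearing receptor that restrains B cells, B-1 cells above all, and is also found on dendritic cells. It was at 15.8, 4.10 and 10.9 TPM in CCl4 libraries 1, 2-4 and 3, against 1.74, 5.04, 4.37, 4.70 and 7.73 TPM in naive libraries 1 to 5. CCl4 libraries 1 and 3 lay above all naive libraries, but CCl4 library 2-4 lay below 4 of the 5. The means of 10.3 ± 5.88 TPM in CCl4 and 4.72 ± 2.13 TPM in naive libraries gave a log2 fold change of 0.91 (SE 0.415, 95% interval -0.01 to 1.83, limma adjusted p = 0.111). Without CCl4 library 2-4 it was 1.40 (limma adjusted p = 0.0181), and without CCl4 library 1 it was 0.54 (limma adjusted p = 0.367).
Among B cell genes, 2 of 8 were lower in CCl4 and none was higher, against 22.5% and 15.3% of all genes tested. Their sums were 72.1 to 172 TPM in CCl4 and 111 to 177 TPM in naive libraries. Cd79a, a chain of the B cell receptor, ran the other way from Siglecg within the CCl4 group, at 12.7, 43.5 and 15.3 TPM in libraries 1, 2-4 and 3. Cd79b, its partner, averaged 39.5 ± 13.7 TPM in CCl4 and 44.3 ± 8.55 TPM in naive libraries (limma adjusted p = 0.537). Cd22, the B cell Siglec, averaged 18.6 ± 3.96 TPM in CCl4 and 21.2 ± 3.005 TPM in naive libraries (limma adjusted p = 0.437). Of 7 genes of conventional dendritic cells 3 were higher and 2 lower, against 15.3% and 22.5% of all genes tested. Their sums were 306 to 444 TPM in CCl4 and 188 to 264 TPM in naive libraries, and the groups did not overlap. Cd209a, a lectin of dendritic cells derived from monocytes, averaged 152 ± 23.2 TPM in CCl4 and 3.597 ± 6.19 TPM in naive libraries, while Zbtb46, a transcription factor of dendritic cells and endothelium, fell by 1.38 on the log2 scale. The part of these cells in the Siglecg values was not tested.

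Siglech encodes Siglec-H, which lacks ITIMs, signals through DAP12 and marks plasmacytoid dendritic cells and microglia. It measured 4.21, 3.77 and 3.75 TPM in CCl4 libraries 1, 2-4 and 3, against 3.75, 3.11, 4.26, 2.73 and 1.74 TPM in naive libraries 1 to 5. The CCl4 values lay within the upper part of the naive range, and the log2 fold change was 0.29 (SE 0.219, 95% interval -0.20 to 0.77, limma adjusted p = 0.336). The files list 12 transcripts of Siglech, 4 of which were at 0 in all libraries.
Markers of plasmacytoid dendritic cells summed to 59.8 to 72.001 TPM in CCl4 and 55.3 to 101 TPM in naive libraries, and 8 of the 9 listed had a matched transcript. Of these 1 was higher and 2 were lower, against 15.3% and 22.5% of all genes tested. Klk1, 1 of the 2 lower genes, passed the filter only through naive libraries, so its call is no support for a direction. Tcf4, the lineage's transcription factor, which endothelium also expresses, was among the lower genes (26.5 ± 2.72 TPM in CCl4 and 50.3 ± 11.7 TPM in naive libraries). Ly6d, a surface marker of that lineage and of B cells, was not called, at 10.3 ± 0.700 TPM in CCl4 and 17.1 ± 6.16 TPM in naive libraries (limma adjusted p = 0.122). Of the other Siglec genes read, Mag and Siglec15 were below the filter. Mag, the myelin-associated glycoprotein, did not exceed 0.752 TPM in CCl4 and 1.20 TPM in naive libraries, and Siglec15, the osteoclast Siglec, was listed at 0 in all 8.

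**Figure D2:**
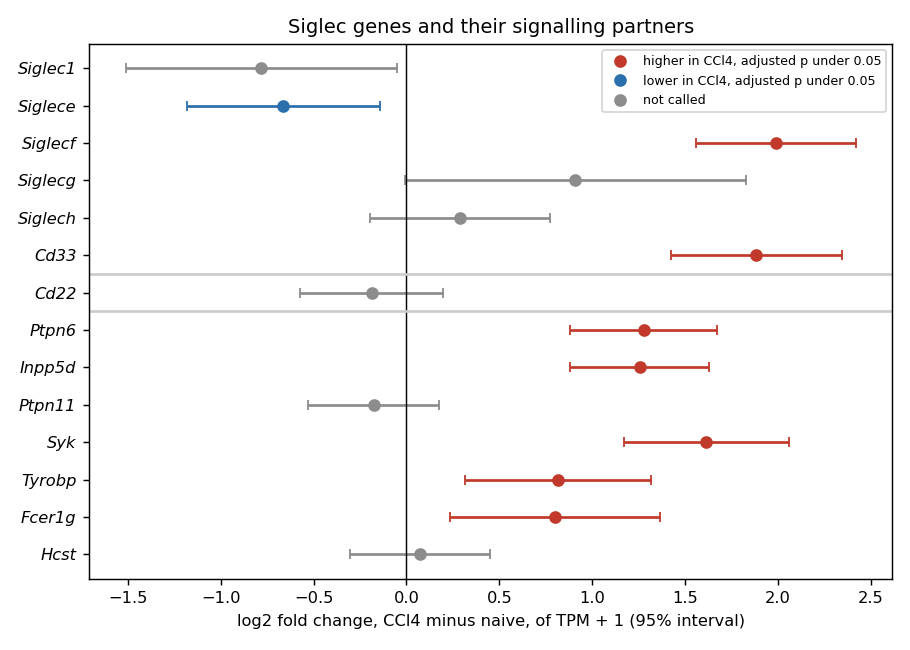
Log2 fold change (CCl4 minus naive, of TPM + 1) with its 95% interval from limma for the 6 Siglec genes, for Cd22 and for the phosphatases, adaptors and kinase that work with them. Red marks genes called higher in CCl4, blue genes called lower and grey genes not called, and the intervals of Siglecf and Cd33 lie well above 0 while those of Siglecg, Siglech and Cd22 include it.

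By level, the order of the genes differed between the groups in its lower part. In CCl4 libraries it ran Siglec1, Siglece, Cd33, Siglecg, Siglecf and Siglech from high to low, and in naive libraries Siglec1, Siglece, Cd33, Siglecg, Siglech and Siglecf. The ranges of Siglec1 and Siglece overlapped in both groups, so those 2 were not told apart in level, nor were Siglecg and Siglecf in CCl4 libraries. In naive libraries the ranges of Cd33 and Siglecg and of Siglecg and Siglech overlapped as well. Within the same library, however, Cd33 was above Siglecg in 5 of 5 naive libraries, and Siglecg above Siglech in 4 of 5. The summed TPM of the 6 genes was 193 ± 27.1 in CCl4 and 239 ± 49.7 in naive libraries.
Shares of that sum do not depend on how a library is scaled. Cd33 made up 16.5%, 20.3% and 19.4% of the summed Siglec TPM in CCl4 libraries 1, 2-4 and 3, against 3.30% to 4.02% in naive libraries. Siglecf made up 2.80% to 4.00% in CCl4 and 0.255% to 0.518% in naive libraries. The share of Siglec1 was 20.9% to 47.0% in CCl4 and 33.6% to 57.2% in naive libraries, and that of Siglece 24.7% to 50.3% and 36.5% to 58.6%, so both overlapped between groups. For each unit of Siglece there was 0.403 to 0.669 of Cd33 in CCl4 and 0.0658 to 0.108 in naive libraries.

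**Figure D3:**
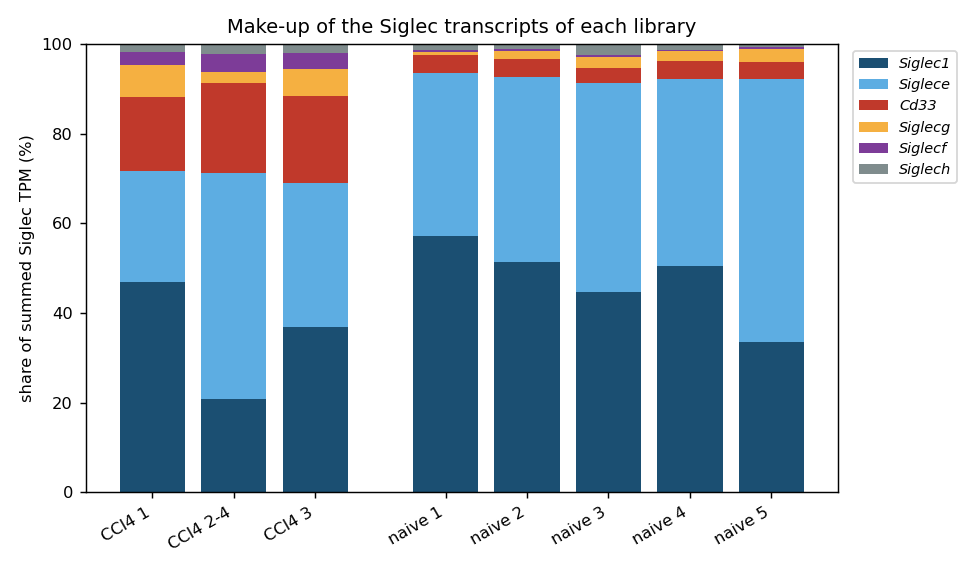
Share of the summed TPM of the 6 Siglec genes held by each gene, 1 bar per library, with the 3 CCl4 libraries at the left and the 5 naive libraries at the right. Cd33 (red) takes 16.5% to 20.3% of the CCl4 bars and 3.30% to 4.02% of the naive bars, and Siglec1 and Siglece (dark and light blue) make up most of every bar.

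Because Ptprc and monocyte genes were more abundant in CCl4 libraries, each Siglec gene was also set against 5 genes that leukocytes share (Ptprc, Laptm5, Cd53, Coro1a and Arhgdib), a comparison chosen after the values were seen. Not all leukocyte genes moved that way. Of 7 genes of T and NK cells 0 were higher and 3 lower (limma), against 15.3% and 22.5% of all genes tested. The geometric mean of the 5 was 273 to 336 TPM in CCl4 and 103 to 157 TPM in naive libraries. On this scale the median gene was lower by 1.31 (log2) in CCl4, so each difference is read against that shift and not against 0, and no test is given. Siglece was at 16.4%, 30.1% and 21.6% of the leukocyte level in CCl4 libraries 1, 2-4 and 3, against 76.7% to 101% in naive libraries, a log2 difference of -1.91. Siglec1 was at 12.5% to 31.2% in CCl4 and 58.0% to 120.5% in naive libraries, a difference of -2.03. Cd33 was at 11.0% to 13.1% in CCl4 and 5.45% to 8.35% in naive libraries (0.76), and Siglecf at 1.86% to 2.45% and 0.469% to 0.895% (1.66). Siglecg and Siglech overlapped on this scale, with differences of -0.18 and -0.85. Siglec1 and Siglece lay below the median gene and the other 4 members above it. Dividing by the leukocyte genes moves all genes of a library equally, so it could not alter that order.

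**Figure D4:**
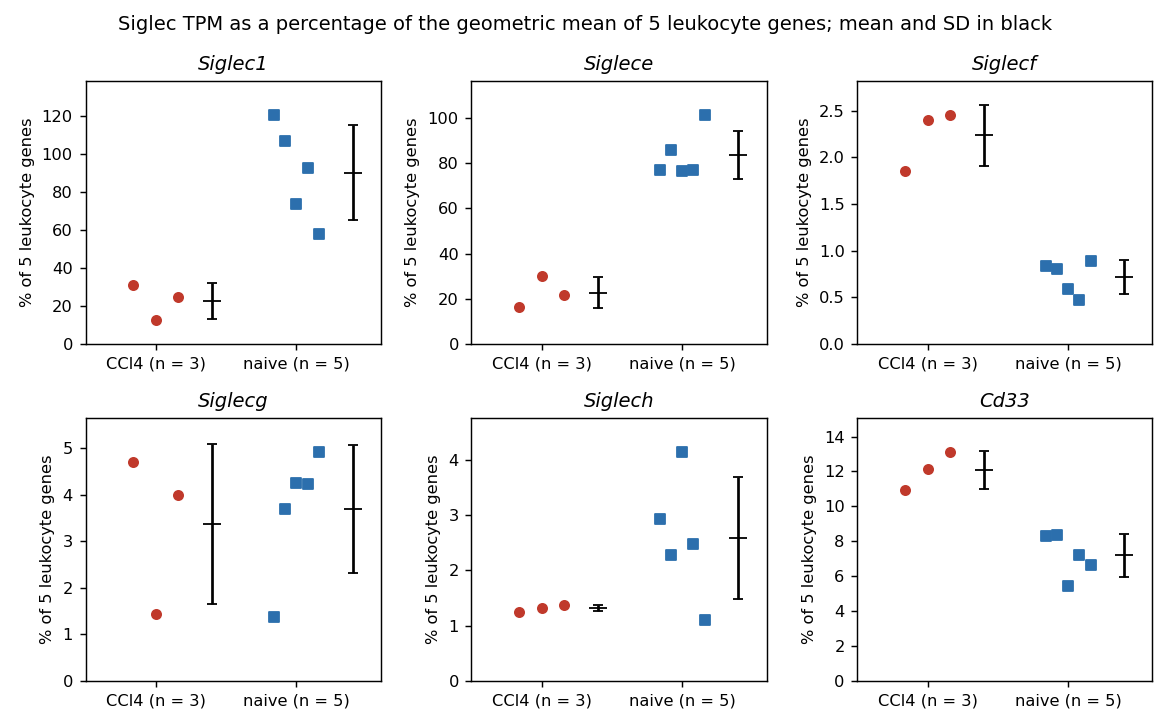
TPM of each Siglec gene as a percentage of the geometric mean of 5 leukocyte genes in the same library, with CCl4 libraries in red at the left, naive libraries in blue at the right, and mean and SD in black. Siglec1 and Siglece lie lower and Siglecf and Cd33 higher in all 3 CCl4 libraries than in any naive library, while Siglecg and Siglech overlap. The 5 leukocyte genes were themselves higher in CCl4 libraries, which lowers every gene on this scale.

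Several of the signalling partners of the Siglecs rose, 2 of 3 phosphatase genes and 3 of 4 adaptor and kinase genes, against 15.3% of all genes tested. Among the phosphatases, Ptpn6, which encodes SHP-1, averaged 279 ± 10.1 TPM in CCl4 and 117 ± 26.01 TPM in naive libraries, a log2 fold change of 1.28 (SE 0.179, limma adjusted p = 0.000251). Inpp5d, which encodes the lipid phosphatase SHIP-1, averaged 149 ± 12.96 TPM in CCl4 and 62.8 ± 12.5 TPM in naive libraries, and rose by 1.26. Ptpn11, the gene of SHP-2, was at 33.8 ± 5.73 TPM in CCl4 and 38.2 ± 5.07 TPM in naive libraries and did not pass the test (limma adjusted p = 0.4199).
On the activating side 3 of 4 genes were higher. Tyrobp, which encodes DAP12, averaged 987 ± 240 TPM in CCl4 and 562 ± 130 TPM in naive libraries (log2 fold change 0.82, limma adjusted p = 0.0155), and the kinase gene Syk 221 ± 21.4 and 73.1 ± 18.0 TPM (1.61). Fcer1g, the common Fc receptor gamma chain, rose by 0.80 (limma adjusted p = 0.0303), although its groups overlapped, and Hcst, which encodes DAP10, did not pass at 17.2 ± 1.33 TPM in CCl4 and 16.5 ± 3.27 TPM in naive libraries. Without CCl4 library 1, 1 of the 4 was called higher. Ptprc rose by 1.50 beside the genes that were higher, and the part of leukocyte content in their values was not tested.

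Genes that make or remove Siglec ligands went both ways. Of 20 sialyltransferase genes 14 passed the filter, 5 of them higher and 5 lower in CCl4, and their median log2 fold change was -0.27. Among all genes tested 15.3% were higher and 22.5% lower. St8sia4, St8sia1 and St8sia6, whose products add sialic acid to sialic acid, were called higher, but St8sia1 and St8sia6 passed the filter only through the CCl4 libraries, so their count is no support for a direction of the family. St8sia4, a polysialyltransferase, averaged 62.0 ± 13.4 TPM in CCl4 and 15.8 ± 1.97 TPM in naive libraries (log2 fold change 1.89, SE 0.165, limma adjusted p = 1.03e-05). St8sia1, which makes the ganglioside GD3, averaged 7.37 ± 1.54 TPM in CCl4 and 0.745 ± 0.496 TPM in naive libraries, and St8sia6 averaged 7.88 ± 2.12 and 0.971 ± 0.661 TPM. The steepest fall was that of St6galnac3, at 4.31 ± 2.74 TPM in CCl4 and 35.6 ± 6.57 TPM in naive libraries (log2 fold change -2.93, SE 0.332). St3gal6 and St3gal4, which cap galactose with alpha-linked sialic acid, fell by 1.82 and 0.78. The sum of the 12 endothelial markers fell beside these genes, to 449 to 680 TPM in CCl4 libraries, against 5891 to 11011 TPM in naive libraries, and their part in the falls was not tested.
Among 8 genes of sialic acid synthesis and modification 2 were lower and none was higher, a share near the 22.5% of all genes called lower. Gne, the bifunctional enzyme that starts the pathway, averaged 9.42 ± 1.52 TPM in CCl4 and 16.8 ± 3.50 TPM in naive libraries (limma adjusted p = 0.00988), and Slc35a1, the CMP-sialic acid transporter of the Golgi, 7.41 ± 0.598 and 13.5 ± 2.94 TPM (limma adjusted p = 0.0106).
Of the 5 tested genes of sialic acid release and breakdown 2 were lower, against the same 22.5%. Npl, which cleaves free sialic acid, averaged 5.29 ± 0.215 TPM in CCl4 and 53.7 ± 15.999 TPM in naive libraries (log2 fold change -3.06, SE 0.260, limma adjusted p = 8.53e-06). Without CCl4 library 2-4, 1 gene of this list was called higher. Neu3, the sialidase of the plasma membrane, averaged 3.32 ± 1.02 TPM in CCl4 and 11.3 ± 3.04 TPM in naive libraries. Of 5 genes for glycoproteins that carry Siglec ligands, 3 were higher, Spn, Selplg and Ptprc, against 15.3% of all genes tested. Spn, the gene of CD43, a counter-receptor of sialoadhesin, averaged 45.6 ± 15.1 TPM in CCl4 and 15.7 ± 4.86 TPM in naive libraries, and Selplg, the gene of PSGL-1, 161 ± 19.2 and 58.4 ± 15.2 TPM. Cd24a, whose product is a ligand of Siglec-G, was not called, at 27.1 ± 2.72 TPM in CCl4 and 23.9 ± 5.67 TPM in naive libraries.

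**Figure D5:**
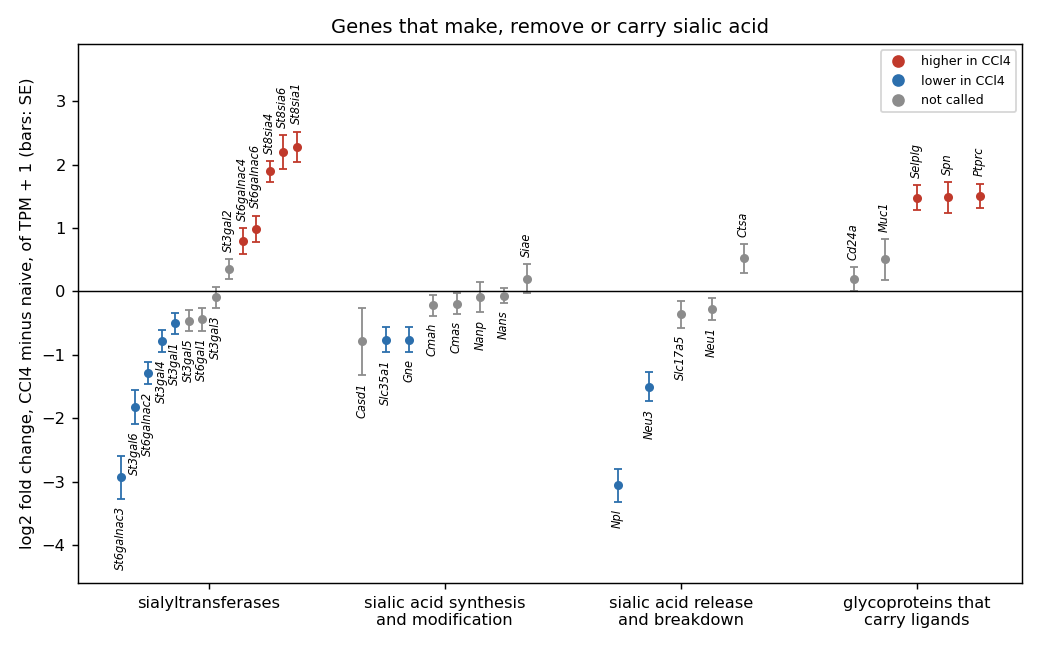
Log2 fold change (CCl4 minus naive, of TPM + 1, bars show the SE) of the tested genes that attach, make, remove or carry sialic acid, ordered by fold change within each list. Red marks genes called higher in CCl4, blue genes called lower and grey genes not called, and St8sia4, St8sia6 and St8sia1 stand at the upper end of the sialyltransferases while St6galnac3 and Npl stand lowest in their lists.

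The genes most like each Siglec were found by the root mean square difference between profiles of log2(TPM + 1) over the 8 libraries, each centred on its own mean, among 7942 or 7943 tested genes with a mean of at least 10 TPM. For Cd33 they were Rassf4, Il6ra and Gm32435, at 0.0868 to 0.120, where the median of all candidates was 1.001. For Siglecf they were Cyrib, Itga4 and Il10ra, at 0.111 to 0.130 (median 1.03). Il6ra and Il10ra encode cytokine receptors, and Itga4 an integrin chain of leukocytes. Siglec1 was most like Pltp, Gpx3 and Abcc3, at 0.227 to 0.242, and Siglece most like Tapbpl, Dst and Gm39718, at 0.186 to 0.217. Siglecg had the least close matches, C5ar1, Lmna and H3c8 at 0.253 to 0.375. Siglech was most like Pisd-ps1, Usp45 and Prdx6, at 0.102 to 0.127. Siglecf and Siglech stayed below 10 TPM in every library. The added 1 TPM shrinks their differences, so their closeness to more abundant genes depends on it.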

How the data were processed

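RNA of isolated Kupffer cells entered a directional library preparation, per the labels' protocols. The authors deposited a TPM value for each RefSeq transcript (per the file headers). Kallisto 0.42.4 and the build GRCm38 are named, per the submitters' processing notes. Index, trimming, strand setting and sequencing depth: not given in the sources used here. Library-to-library spread was therefore the measure of precision.

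Of 107384 transcripts 86722 matched a gene of the RefSeq table (GRCm38.p6) by accession without version, and their TPM were summed to 32903 genes. The unmatched transcripts held 6.06% to 7.58% of a library's TPM, so some sums may be incomplete. Genes reaching 1 TPM in 3 or more libraries entered a limma fit (version 3.58.1, R 4.3.3) of log2(TPM + 1) on group alone, with an intensity trend. P-values were adjusted by Benjamini-Hochberg over all these genes. The fit was tested on simulated data. Promoter windows were aligned with Biopython 1.88 (local, match 2, mismatch -2, gap opening -4, extension -1). Alternatives changed the pseudocount, filter, scaling, transcript matching, variance settings and library weights, added a replicate block, or left out a library.

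The members and lists were chosen with earlier results of these data known. Named are all 6 members, the other Siglec genes, signalling partners and the 3 most similar genes per member. From each pathway list up to 4 called genes were named, by adjusted p. Cell type markers were drawn from the 2 most abundant of each type discussed, not all of which are named. Adgre1 was named outside this rule and was the 1 Kupffer cell marker of 10 that was not called. Other genes named (Prg2, Epx, Klk1, St3gal6, St3gal4, Cd24a, Ctu1, Ceacam18) were chosen after their values were seen.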

Additional observations from a re-analysis of the deposited data

Results flagged for a closer look

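Among 67 named genes, 8 had a naive library whose gap to its nearest neighbour, divided by the range of the 5 naive libraries, was above Dixon's critical value of 0.71. For normally distributed values about 1 gene in 20 would pass. TPM need not be normal and these genes are not independent, so the 8 are not set against that rate. Siglec15, at 0 throughout, had no range to test. In all 8 the library was naive 5. Cd209a stood at 14.7 TPM in naive library 5 and at 0.444 to 1.146 TPM in the other naive libraries (0.951), and Ccr2 at 38.2 against 11.6 to 16.9 TPM (0.803). St8sia1 was at 1.62 against 0.422 to 0.651 TPM (0.808) and St8sia6 at 2.11 against 0.476 to 0.941 TPM (0.715). Spn was at 24.04 against 11.5 to 14.7 TPM (0.746) and C5ar1 at 45.9 against 13.3 to 21.6 TPM (0.744). Ifi44 was lowest there, at 6.51 against 20.5 to 25.1 TPM (0.75), and so was Tcf4, at 30.1 against 51.6 to 58.8 TPM (0.75). In all 8 genes naive library 5 lay on the side of the CCl4 libraries, and none of the 6 Siglec genes was among them.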

How the results depend on the processing

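Cd33 was called higher under all 20 other limma settings (log2 fold change 1.54 to 2.09) and Siglecf under all 19 that kept it (0.97 to 2.76). With a mean of at least 5 TPM required, Siglecf and Siglech were not in the fit and 1 member was called higher. Siglece missed the threshold with a pseudocount of 0.1 (-0.67, limma adjusted p = 0.0505), no filter (-0.66, 0.0938), median-of-ratios rescaling (-0.57, 0.0994), quantile normalization (-0.58, 0.108) and no intensity trend (-0.66, 0.0575), and under each of these 0 members were called lower. Its exact permutation p was 0.107. Leaving out a library gave -0.86 to -0.51 for Siglece, -1.14 to -0.37 for Siglec1, 0.54 to 1.40 for Siglecg and 0.15 to 0.39 for Siglech, with 2 to 3 members called higher and 0 to 1 lower. Library weights brought Siglecg past the threshold (1.24, limma adjusted p = 0.0295). Relative to the 5 leukocyte genes Siglec1 was at -2.03, Siglecg at -0.18 and Siglech at -0.85, with the median gene at -1.31. The signs of Siglecg and Siglech thus turned with the scaling. This scale shifts every gene alike, so a gene's place against the median gene could not change. Quantile normalization called 4011 genes higher, against 2393, and put the median gene at 0.11 in place of -0.06. The cause of these changes was not tested.

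The groups share only the numbers 1 and 3, and same-numbered libraries did not deviate together (r = 0.0772 and -0.0414), so the numbers were not taken as pairs. With the replicate block the group difference came from libraries 1 and 3 of each group alone. The remaining libraries share no number across the groups and added nothing to it. On that basis Siglec1 was at -0.35, Siglece at -0.62 and Siglecg at 1.88, and Siglech reversed to -0.0062. Too few libraries stand behind these values to judge their spread, so no p-value is given and no conclusion is drawn. The calls of this fit are still counted among the other limma settings. Depth is unknown, so the precision of the low levels of Siglecf and Siglech rests on the spread between libraries alone.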
